A study of Homo sapiens with 6 samples.

Results

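The AP-1 and BATF transcription factors examined here were 10 genes: FOS, FOSB, FOSL1, FOSL2, JUN, JUNB, JUND, ATF3, BATF and BATF3. They were chosen by symbol in the authors' deposited table, which pairs transcripts with genes, and the TPM of their 51 transcripts was summed per gene ID. Each symbol had 1 gene ID, so the set was 10 of 63677 genes. TPM states each transcript as a share of the library after correction for its length.

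The libraries came from KMS27, an established human multiple myeloma line, which consists of malignant plasma cells. One group of 3 libraries was labelled HA-TAZ and carried overexpressed TAZ (the product of WWTR1, a coactivator of the Hippo pathway) with an HA peptide tag, and the other group of 3 was labelled wild type. No drug, genotype or time point other than this is in the labels. The vector, the promoter that drives HA-TAZ and whether the cells were 1 clone are not given in the sources used here, nor is it stated whether the control cells received a construct. The HA-TAZ libraries are numbered 1 to 3 as in their titles. The control columns carry a name that is in no label and were taken as wild type because no others remained, so they are named control a, b and c. The labels do not say that the libraries came from separate cultures, so p-values measure the spread between these libraries, which may be technical.

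AP-1 is a dimer of basic leucine zipper (bZIP) proteins. JUN proteins pair with each other or with FOS proteins, whereas FOS proteins need a JUN partner to bind DNA. The dimers bind the AP-1 site and the related cyclic AMP response element (CRE), and many family members are early response genes with short-lived RNA that is made when MAP kinases are active. ATF3 is a stress-induced bZIP factor. BATF and BATF3 pair with JUN proteins and bind composite elements with IRF4 or IRF8, and IRF4 is a factor on which plasma cells and myeloma cells depend. TAZ does not bind DNA itself and acts through TEAD factors, which share many enhancers with AP-1.

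The promoters of the JUN genes are shown because all 3 of these genes rose and JUND and JUNB are the most abundant members. They are RefSeq windows on GRCh38.p14, from 250 bases before to 50 bases after the start of the gene. Capitals mark exact matches, on either strand, to the AP-1 site TGANTCA, the CRE TGACGTCA or the related site TGACATCA.
JUNB (chr19:12791236-12791535, plus strand): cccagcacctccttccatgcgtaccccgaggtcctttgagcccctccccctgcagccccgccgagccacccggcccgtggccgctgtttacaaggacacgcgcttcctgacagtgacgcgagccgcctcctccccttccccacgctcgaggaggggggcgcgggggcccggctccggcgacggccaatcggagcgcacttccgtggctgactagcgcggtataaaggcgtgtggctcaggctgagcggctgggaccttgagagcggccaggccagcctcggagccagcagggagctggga
JUN (chr1:58783998-58784297, minus strand): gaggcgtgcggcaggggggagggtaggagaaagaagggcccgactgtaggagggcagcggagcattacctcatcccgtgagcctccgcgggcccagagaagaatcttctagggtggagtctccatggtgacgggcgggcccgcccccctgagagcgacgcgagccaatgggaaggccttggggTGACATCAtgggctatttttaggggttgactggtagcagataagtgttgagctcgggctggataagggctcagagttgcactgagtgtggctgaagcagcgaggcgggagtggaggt
JUND (chr19:18281573-18281872, minus strand): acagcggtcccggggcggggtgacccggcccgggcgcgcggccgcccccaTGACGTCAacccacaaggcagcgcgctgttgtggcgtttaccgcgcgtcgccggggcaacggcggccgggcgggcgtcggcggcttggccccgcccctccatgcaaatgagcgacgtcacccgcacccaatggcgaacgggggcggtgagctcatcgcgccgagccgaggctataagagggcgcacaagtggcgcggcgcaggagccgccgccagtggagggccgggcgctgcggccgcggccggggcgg

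JUN held TGACATCA 67 bases upstream of its start, and JUND held the CRE 200 bases upstream of its start. JUNB held none of the 3 motifs in this window. Windows were found for 8 members, with 2 windows for ATF3 and none for FOSL1 and BATF3. Of the 8, 1 held TGANTCA (FOSL2), 1 held TGACGTCA (JUND) and 2 held TGACATCA (JUN and, in 1 of its windows, ATF3). Among all 35116 promoter windows of 300 bases, these motifs were in 7.71%, 1.85% and 2.61%. The motif TGACATCA was added after the sequences had been read. The TEAD motif GGAATG was in none of the members' windows and in 14.0% of all windows. The kappa B like motif was in 5 of the 8 and in 58.7% of all, the CArG box in 0 of the 8 and 1.29% of all, and the interferon-stimulated response element in 0 of the 8 and 3.57% of all. A match is a description of letters and not of a bound site. The ATF3 windows lie at other starts than that of its main transcript, so neither is shown.

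The label check was WWTR1, with 293, 306 and 293 TPM in HA-TAZ 1, 2 and 3 and 2.69, 2.22 and 1.69 TPM in control a, b and c. Plasma cell markers such as SDC1 and XBP1 were present, and 9 of the 10 listed markers found by symbol passed the filter on level. A listed marker whose symbol was not found is left out. The summed TPM of this list, as deposited, was 591 to 644 in HA-TAZ and 691 to 795 in control libraries. The median log2 fold change of the 9 was −0.31 as deposited, beside −0.27 over all genes tested. In the scaled TPM defined below it was −0.02, beside −0.03 over all genes. There 1 of the 9 was called higher and 1 lower, beside 4.67% and 2.63% of all genes. CD79A alone was under 1 TPM. Markers of B cells, T cells, myeloid cells, fibroblasts and epithelial cells summed to between 0.346 and 6.08 TPM per list in any library. Between 20534 and 21395 genes reached 1 TPM in HA-TAZ libraries, against 23120 to 23807 in controls. This difference in library make-up moves with the group, and its part in the results below was not tested. In bulk RNA, fewer cells with a transcript and less of it per cell cannot be told apart.

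Among the called members, JUNB and JUN rose most in HA-TAZ cells, ATF3, FOS, FOSL2 and JUND rose by less, and no member was called lower. BATF had a larger log2 fold change (0.70) than FOSL2 (0.54) and JUND (0.45) but was not called (limma, BH-adjusted p = 0.0680). The order of ATF3 and FOS depended on the pseudocount, with log2 fold changes of 0.87 and 0.82 at 1 and of 0.91 and 0.93 at 0.1. Of 9 members that passed a filter of a mean of at least 1 TPM, 6 were called higher and 0 lower (limma, p adjusted by the method of Benjamini and Hochberg, here BH-adjusted p, under 0.05). Over all 22651 genes tested 7.29% were called, 4.67% higher and 2.63% lower. At an unadjusted p under 0.05, 7 members and 30.7% of all genes passed. The fold changes refer to scaled TPM, which is TPM divided by a median-of-ratios factor per library, with 1 added before taking log2. This understates changes of genes at low level. The median log2 fold change of the 9 was 0.70, beside −0.03 over all genes tested. With TPM as deposited these medians were 0.46 and −0.27, and 3 members were called higher and 0 lower, beside 14.7% of all genes called, 1.15% higher and 13.5% lower. The 3 were JUNB, JUN and ATF3. Without any 1 library, 2 or 3 members were called. The values of scaled TPM did not overlap between the groups for 7 of the 10 members, all higher in HA-TAZ, beside 20.2% of tested genes that were apart and higher and 18.3% apart and lower.

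**Figure D1:**
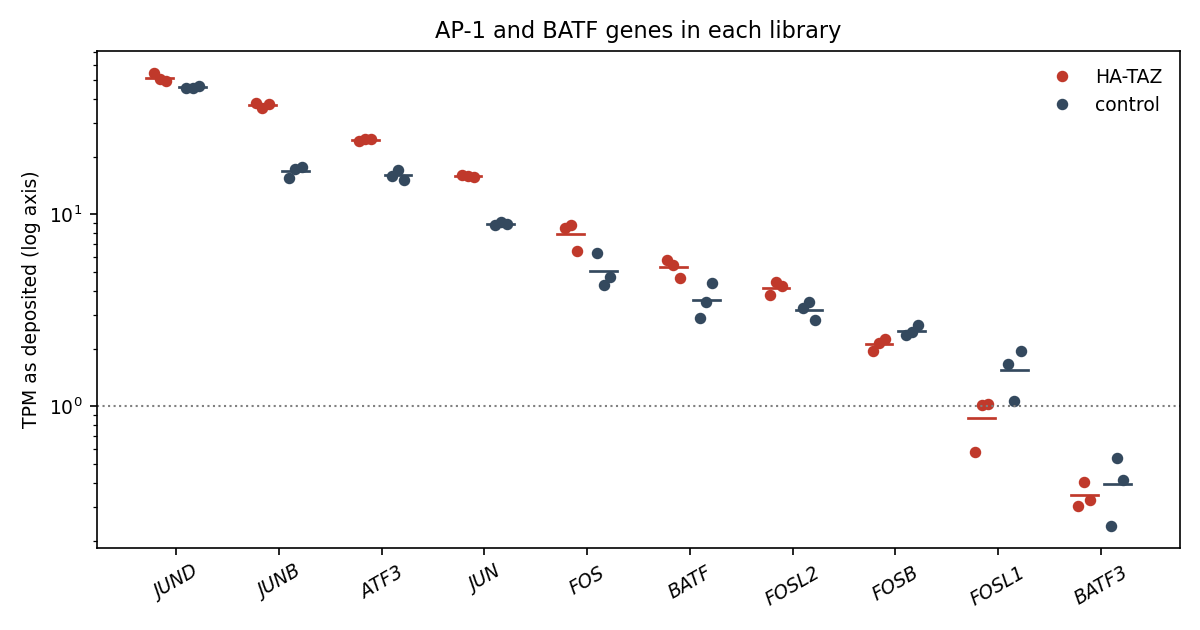
TPM as deposited of the 10 genes in each library, on a log axis. Points are single libraries, horizontal bars are group means (n = 3 each) and the dotted line is the filter at 1 TPM, and JUNB shows the widest gap, with 35.9 to 37.9 TPM in HA-TAZ and 15.5 to 17.6 TPM in control libraries.

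Among the JUN genes, JUNB changed most. Its product is a JUN protein that activates transcription more weakly than JUN does. JUNB (ENSG00000171223) was at 37.9, 35.9 and 37.4 TPM in HA-TAZ 1, 2 and 3 and at 15.5, 17.3 and 17.6 TPM in control a, b and c. Every HA-TAZ library lay above every control, and the spread within each group was small beside the gap. The means were 37.1 ± 1.07 and 16.8 ± 1.15 TPM (SD of 3 libraries each), a ratio of 2.21 as deposited and of 2.71 in scaled TPM. The log2 fold change was 1.39 (SE 0.11, limma, BH-adjusted p = 0.00690). It rose under each alternative run, with log2 fold changes from 1.10 to 1.46 and adjusted p-values from 0.00415 to 0.0445.

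JUN encodes the founding member of the family and a strong activator. JUN (ENSG00000177606) was at 16.03, 15.9 and 15.7 TPM in HA-TAZ 1, 2 and 3 and at 8.77, 9.11 and 8.90 TPM in control a, b and c. The libraries of each group lay close together, and the groups did not overlap. The means of JUN were 15.9 ± 0.163 and 8.92 ± 0.169 TPM (SD of 3 libraries each), a ratio of 1.78 as deposited and of 2.19 in scaled TPM. The log2 fold change was 1.04 (SE 0.08, limma, BH-adjusted p = 0.00610), with adjusted p-values from 0.00379 to 0.0428 over the alternatives.

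JUND, the JUN gene that is held at a steady level in many cell types, was the most abundant member in both groups and changed least among the called genes. JUND (ENSG00000130522) was at 54.3, 50.7 and 49.6 TPM in HA-TAZ 1, 2 and 3 and at 45.7, 45.5 and 46.8 TPM in control a, b and c. The groups were apart, but by only 2.83 TPM at the closest libraries. The means were 51.5 ± 2.43 and 46.0 ± 0.724 TPM (SD of 3 libraries each), a ratio of 1.12 as deposited and of 1.38 in scaled TPM. The log2 fold change was 0.45 (SE 0.09, limma, BH-adjusted p = 0.0434). This call was lost with TPM as deposited (log2 fold change 0.16, limma, BH-adjusted p = 0.0972) and without any 1 library (limma, BH-adjusted p = 0.0653 to 0.120). With a factor over protein-coding genes the call was also lost (limma, BH-adjusted p = 0.0512), as it was without a filter on level (0.0803) or an intensity trend (0.0639).

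Most of the difference in JUND TPM as deposited was assigned to the lesser of its 2 annotated transcripts, which had few estimated counts. ENST00000252818.3 had means of 47.1 ± 0.172 and 45.4 ± 1.12 TPM in the HA-TAZ and control groups (SD of 3 libraries each). ENST00000600972.1 was at 7.21, 3.73 and 2.38 TPM in HA-TAZ 1, 2 and 3 and at 1.06, 0.565 and 0.128 TPM in control a, b and c. Neither transcript passed the test over 57448 transcripts (limma, BH-adjusted p = 0.111 and 0.0804). For the first transcript, the authors' deposited table listed an effect of 0.262 (natural log, SE 0.0572) at a q-value of 3.79e-04. For the second, the authors' deposited table gave a q-value of 0.139. Means there implied about 27.2 estimated counts for the second transcript and 5156 for the first, so the TPM of the second rests on few reads.

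**Figure D2:**
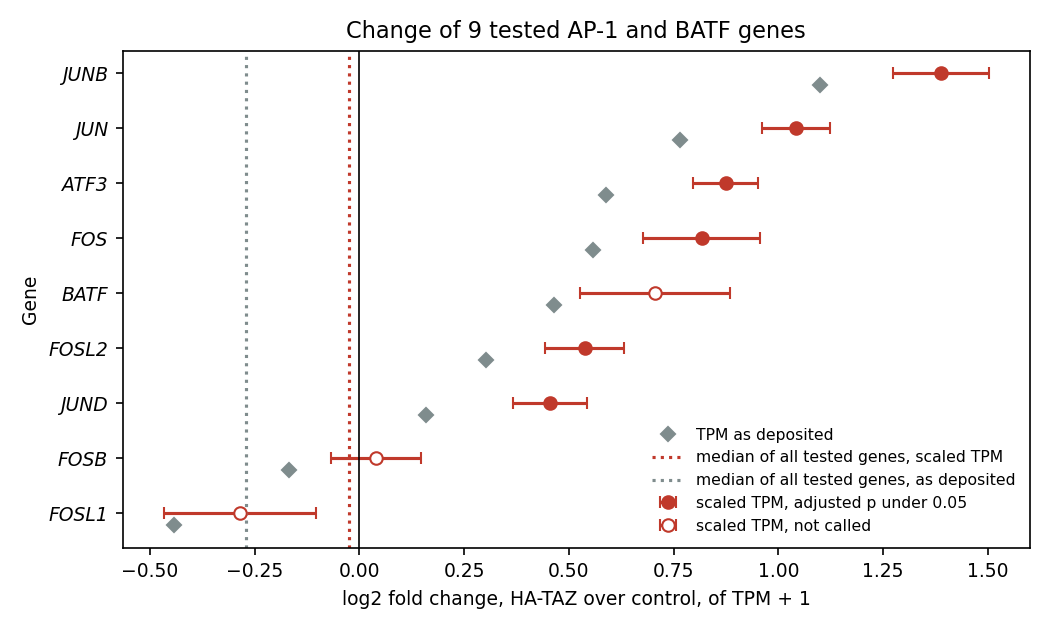
Log2 fold changes of HA-TAZ over control for the 9 tested genes, with standard errors from limma for scaled TPM (filled circles are called, open circles are not) and without error bars for TPM as deposited (diamonds). Dotted lines are the medians of all tested genes, −0.03 and −0.27, and of the 9 genes, FOSB lies on different sides of 0 on the 2 scales.

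FOS and FOSL2 rose among the FOS genes, and FOSB and FOSL1 did not pass the test. FOS is the classical early response partner of JUN. FOS (ENSG00000170345) was at 8.54, 8.78 and 6.45 TPM in HA-TAZ 1, 2 and 3 and at 6.26, 4.28 and 4.70 TPM in control a, b and c. HA-TAZ 3 and control a nearly met, at a distance of 0.193 TPM. The means were 7.93 ± 1.28 and 5.08 ± 1.05 TPM (SD of 3 libraries each), and the log2 fold change was 0.82 (SE 0.14, limma, BH-adjusted p = 0.0350). Without any 1 library the call was lost (limma, BH-adjusted p = 0.0574 to 0.118), as it was with TPM as deposited (log2 fold change 0.56, limma, BH-adjusted p = 0.0678). The FOS call was also lost without a filter on level (limma, BH-adjusted p = 0.0631).

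FOSL2, which encodes FRA-2, was at 3.80, 4.46 and 4.22 TPM in HA-TAZ 1, 2 and 3 and at 3.24, 3.51 and 2.81 TPM in control a, b and c. The groups did not overlap. FOSL2 (ENSG00000075426) had a log2 fold change of 0.54 (SE 0.09, limma, BH-adjusted p = 0.0369), which lost its call without any 1 library (limma, BH-adjusted p = 0.0726 to 0.116) and with TPM as deposited (log2 fold change 0.30, limma, BH-adjusted p = 0.1001). Its call was also lost without a filter on level (limma, BH-adjusted p = 0.0611). The main coding transcript ENST00000264716.4 differed little as deposited, at 2.07 ± 0.139 and 1.85 ± 0.113 TPM (SD of 3 libraries each). ENST00000545753.1, which has no type in GENCODE release 29, was at 0.602, 1.32 and 1.36 TPM in HA-TAZ 1, 2 and 3 and at 0.282, 0 and 0.493 TPM in control a, b and c. Models typed as protein-coding held 62.1 ± 3.18% of FOSL2 TPM in HA-TAZ and 85.4 ± 5.10% in control libraries (SD of 3 libraries each). The groups were apart (exact permutation p = 0.1, two-sided, the lowest possible with 3 against 3 libraries). Here the untyped ENST00000545753.1 was counted as not coding. For the processed transcript ENST00000460736.1, the only typed model that is not coding, the groups overlapped. Means in the authors' deposited table implied about 18.0 and 3.05 estimated counts for them, against 854 for ENST00000264716.4. The difference in share therefore depends on a missing type and few reads, and does not show a shift away from coding models.

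FOSL1 encodes FRA-1 and FOSB encodes FosB, and both were near the filter. FOSL1 (ENSG00000175592) was at 0.577, 1.01 and 1.03 TPM in HA-TAZ 1, 2 and 3 and at 1.66, 1.06 and 1.94 TPM in control a, b and c. It was lower in HA-TAZ libraries as deposited, where HA-TAZ 3 and control b differed by 0.0307 TPM, and overlapped in scaled TPM. Its log2 fold change was −0.28 (SE 0.18, limma, BH-adjusted p = 0.336).

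FOSB (ENSG00000125740) was at 1.94, 2.13 and 2.23 TPM in HA-TAZ 1, 2 and 3 and at 2.36, 2.44 and 2.65 TPM in control a, b and c. The groups were apart, with HA-TAZ lower, as deposited and overlapped in scaled TPM. Its direction depended on the scaling, as the log2 fold change was 0.04 (SE 0.11, limma, BH-adjusted p = 0.823) in scaled TPM, −0.17 with TPM as deposited and −0.01 with a factor over protein-coding genes. Beside FOSB and FOSL1, 43.6% of tested genes were apart and lower as deposited, and 4.41% apart and higher.

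ATF3 rose by a similar ratio to FOS, with a smaller spread. ATF3 (ENSG00000162772) was at 24.2, 24.7 and 24.6 TPM in HA-TAZ 1, 2 and 3 and at 15.8, 17.1 and 15.1 TPM in control a, b and c. The HA-TAZ libraries lay within 0.512 TPM of each other and above every control. The means were 24.5 ± 0.262 and 16.01 ± 0.973 TPM (SD of 3 libraries each), and the log2 fold change was 0.87 (SE 0.08, limma, BH-adjusted p = 0.00899). The call was lost without HA-TAZ 1 (limma, BH-adjusted p = 0.0541), and it held under the other alternatives with adjusted p-values of up to 0.0460.

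The main coding transcript of ATF3 was called, and other models of the gene also had higher means in HA-TAZ libraries. ENST00000341491.4 was at 14.5, 14.8 and 14.8 TPM in HA-TAZ 1, 2 and 3 and at 8.64, 9.52 and 9.62 TPM in control a, b and c (log2 fold change 0.89, SE 0.11, limma, BH-adjusted p = 0.0429). The retained intron model ENST00000465155.1 was at 3.36 ± 0.205 and 3.16 ± 0.814 TPM (SD of 3 libraries each), with overlapping groups. ENST00000492118.1, a processed transcript, was at 3.22 ± 0.250 and 2.43 ± 0.4998 TPM (SD of 3 libraries each), with overlapping groups, and the authors' deposited table listed its q-value as 3.83e-04. ENST00000366985.1, a coding model below the filter, was at 1.98, 0.243 and 1.88 TPM in HA-TAZ 1, 2 and 3 and at 0, 0.168 and 0.00116 TPM in control a, b and c, so that HA-TAZ 2 lay far below the other HA-TAZ libraries. Models typed as protein-coding held 72.8 ± 1.15% of ATF3 TPM in HA-TAZ and 64.1 ± 4.33% in control libraries (SD of 3 libraries each, exact permutation p = 0.1).

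BATF, which can replace FOS as a partner of JUN proteins, was higher in each HA-TAZ library but did not pass the test over all genes. BATF (ENSG00000156127) was at 5.76, 5.47 and 4.64 TPM in HA-TAZ 1, 2 and 3 and at 2.87, 3.48 and 4.42 TPM in control a, b and c. HA-TAZ 3 and control c lay 0.219 TPM apart. Its log2 fold change was 0.70 (SE 0.18, limma, BH-adjusted p = 0.0680), and it passed with an upper quartile factor (0.77, limma, BH-adjusted p = 0.0398). For its main transcript ENST00000286639.6, the authors' deposited table listed an effect of 0.572 (natural log, SE 0.154) at a q-value of 0.00753.

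BATF3 was below the filter and was not tested. BATF3 (ENSG00000123685) was at 0.304, 0.404 and 0.326 TPM in HA-TAZ 1, 2 and 3 and at 0.239, 0.537 and 0.413 TPM in control a, b and c, and the groups overlapped (exact two-sided permutation test on scaled TPM, p = 0.9). The means in the authors' deposited table implied about 13.4 estimated counts in a typical library for the BATF3 models with statistics there. The BATF3 model with the highest mean TPM, ENST00000471382.1, had no statistics and is not in this sum. In the authors' deposited table the other members ranged from 84.5 such counts for FOSL1 to 5184 for JUND.

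**Figure D3:**
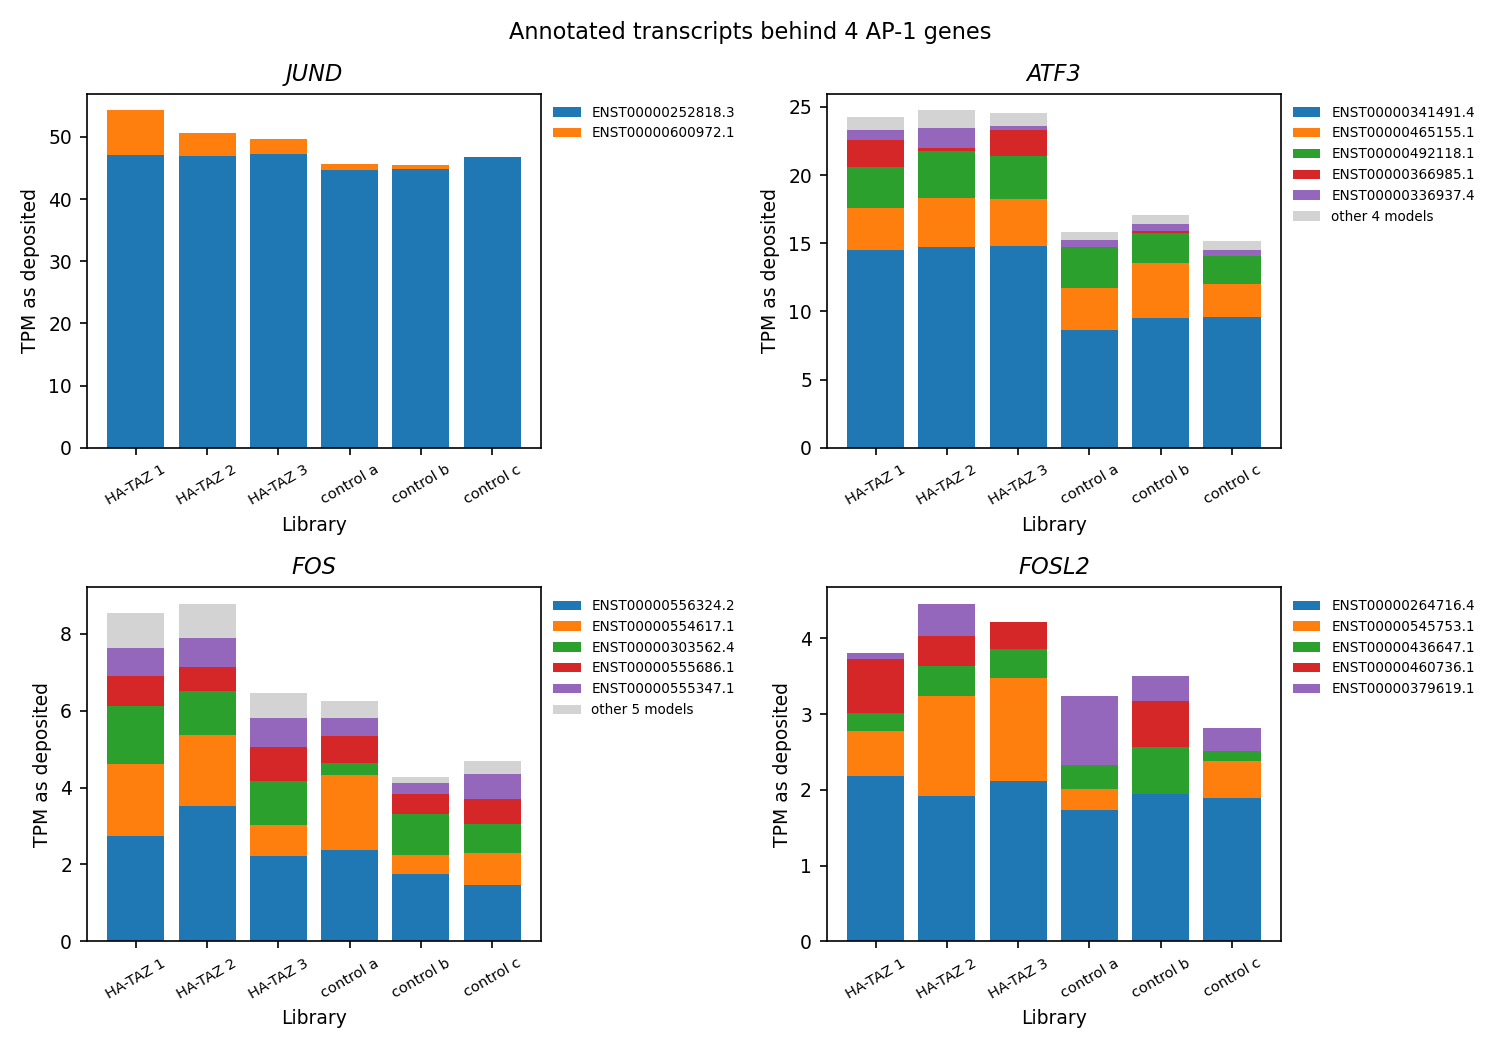
TPM as deposited of the annotated transcripts of JUND, ATF3, FOS and FOSL2, stacked in each library (the 5 models with the highest mean, and the others in grey). ENST00000341491.4 is the tallest part of ATF3 in each library, and no single model holds most of FOS.

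FOS has 10 annotated models, of which ENST00000557139.1 was listed at 0 in each library. The processed transcript ENST00000556324.2 had the highest TPM, with means of 2.82 ± 0.657 and 1.86 ± 0.463 in the HA-TAZ and control groups (SD of 3 libraries each). By estimated counts from the authors' deposited table it was not the highest, at about 59.2 against 116 for ENST00000303562.4. ENST00000303562.4, a coding model, was lowest in control a (0.295 TPM), and its means were 1.26 ± 0.207 in HA-TAZ and 0.711 ± 0.397 TPM in controls. Both tested FOS models missed the threshold (limma, BH-adjusted p = 0.0963 and 0.367). Of all 51 member transcripts, 13 passed the filter and 3 were called higher and 0 lower, the main transcripts of JUNB, JUN and ATF3, beside 0.534% of tested transcripts called and 0.432% called higher. In the authors' deposited table, 7 of the 32 member transcripts with statistics had a q-value under 0.05 and a positive effect and 0 a negative one, where 5.68% of all transcripts passed this q-value and 4.08% did so with a positive effect. These 7 belong to JUNB, JUN, ATF3 (2 transcripts), JUND, FOSL2 and BATF. Effects (natural log) in the authors' deposited table were 1.02 for JUNB (SE 0.0893) and 0.803 for JUN (SE 0.0620).

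The order of levels was the same in both groups, from JUND over JUNB, ATF3, JUN, FOS, BATF, FOSL2 and FOSB to FOSL1 and BATF3. Since TPM is corrected for length, levels can be compared between genes. In HA-TAZ libraries the ranges of neighbours in this order did not overlap. In control libraries JUNB and ATF3 overlapped, at 16.8 ± 1.15 and 16.01 ± 0.973 TPM, as did FOS with BATF and BATF with FOSL2 (SD of 3 libraries each). The difference between the groups in the gap from JUNB to ATF3 was not tested.

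The summed level of the 10 genes was higher in each HA-TAZ library, and within the sum the share of JUND was lower and that of JUNB higher. The summed TPM of the 10 genes was 153, 149 and 146 in HA-TAZ 1, 2 and 3 and 102, 104 and 105 in control a, b and c. Shares within this sum do not depend on the scaling between libraries. JUND held 35.4%, 33.9% and 33.9% of it in HA-TAZ 1, 2 and 3 and 44.6%, 43.6% and 44.4% in control a, b and c. JUNB held 24.7%, 24.0% and 25.6% in HA-TAZ and 15.1%, 16.6% and 16.7% in control libraries. Both shares were apart between the groups (exact two-sided permutation p = 0.1 each). The share of JUN was apart and higher, at 10.6 ± 0.142% in HA-TAZ and 8.58 ± 0.150% in control libraries. Those of FOSB (1.41 ± 0.131% and 2.39 ± 0.111%) and FOSL1 (0.586 ± 0.183% and 1.49 ± 0.424%) were apart and lower (SD of 3 libraries each, exact permutation p = 0.1 each). The shares of the other members overlapped. The TPM of JUND was itself higher in HA-TAZ libraries, so its lower share reflects larger rises of other members.

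Among the JUN genes alone, JUND held 64.1 ± 1.05% in control and 49.3 ± 0.938% in HA-TAZ libraries, and JUNB held 23.4 ± 1.10% and 35.5 ± 0.805% (SD of 3 libraries each). The share of JUN was 12.4 ± 0.284% in control and 15.2 ± 0.351% in HA-TAZ libraries (SD of 3 libraries each). The groups were apart for each of these 3 shares (exact permutation p = 0.1). The 3 subfamilies kept overlapping shares. JUN genes held 69.8 ± 1.09% and 68.9 ± 0.640%, FOS genes 10.1 ± 0.783% and 11.8 ± 1.23%, and ATF3 with BATF and BATF3 20.2 ± 0.373% and 19.2 ± 0.902% of the sum in HA-TAZ and control libraries (SD of 3 libraries each, exact permutation p = 0.3, 0.2 and 0.3).

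**Figure D4:**
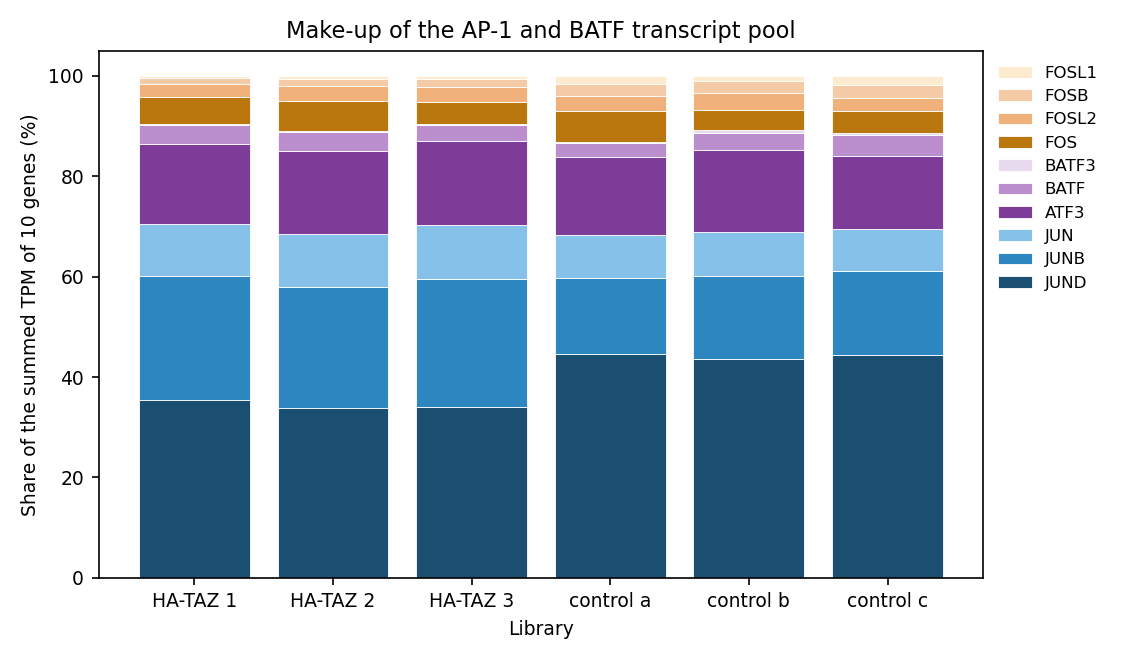
Share of each gene in the summed TPM of the 10 genes, in percent, stacked for each library (blue for JUN genes, purple for ATF3, BATF and BATF3, orange for FOS genes). The JUND part is 33.9% to 35.4% in HA-TAZ and 43.6% to 44.6% in control libraries.

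The genes whose profile was most like that of a member were found by the root mean square difference of centred log2 values over the 6 libraries. For JUNB they were DDX60 (0.0847), C10orf10 (0.0891) and PTP4A3 (0.0896), where the median over all tested genes was 0.742. PTP4A3 also had similar levels, at 36.7 ± 0.751 and 14.8 ± 1.11 TPM in the HA-TAZ and control groups (SD of 3 libraries each). For JUND they were SPHK2 (0.0131), RNASEK (0.0305) and NDUFB6 (0.0306), where the median was 0.311. These distances, in log2 units, are the smallest found, so they lie below the medians by selection and carry no test.

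Other bZIP factors pair with or compete with AP-1 proteins. Of 29 listed, 26 were tested, 2 were called higher and 1 lower, beside 4.67% and 2.63% of all genes, and the median log2 fold change was 0.06. Leaving out 1 library gave 0 (without HA-TAZ 2) to 3 calls, with 1 without HA-TAZ 1, HA-TAZ 3 or control b. With TPM as deposited 1 was called higher and 5 lower, beside 1.15% and 13.5% of all genes. CREB5, a CRE-binding bZIP factor, had the largest rise. Its levels were 9.47, 8.57 and 5.27 TPM in HA-TAZ 1, 2 and 3 and 1.41, 1.13 and 0.957 TPM in control a, b and c. All HA-TAZ libraries were clear of the controls, with a wide spread among them, and the log2 fold change was 2.20 (SE 0.21, limma, BH-adjusted p = 0.0104). Its call was lost without HA-TAZ 2 (limma, BH-adjusted p = 0.0543) and without control b (0.0508).

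MAFG, a small MAF protein that pairs with CNC and BACH factors, rose by 0.49 on the log2 scale (SE 0.05, limma, BH-adjusted p = 0.0114), and lost its call with TPM as deposited (log2 fold change 0.21, limma, BH-adjusted p = 0.0986) and without any 1 HA-TAZ library (limma, BH-adjusted p = 0.0531 to 0.0616). BACH2, a bZIP repressor that holds back plasma cell differentiation in B cells, was at 6.55, 7.13 and 5.78 TPM in HA-TAZ 1, 2 and 3 and at 14.0, 13.3 and 12.0 TPM in control a, b and c. Every HA-TAZ library was below every control. BACH2 fell by 0.64 on the log2 scale (SE 0.08, limma, BH-adjusted p = 0.0150). Without any 1 HA-TAZ library or control b its call was lost (limma, BH-adjusted p = 0.0525 to 0.0664).

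MAP kinases and the kinases above them act on JUN, ATF and TCF proteins by phosphorylation. Of 32 listed, 29 were tested, 2 were called higher and 1 lower, beside 4.67% and 2.63% of all genes, with a median log2 fold change of 0.05. RPS6KA4 rose by 0.41, MAP2K3 rose by 0.22 and MAP3K4 fell by 0.24 on the log2 scale (limma, BH-adjusted p = 0.0338, 0.0449 and 0.0416). Without any 1 library none of the 3 was called, and MAP2K3 turned to −0.06 with TPM as deposited. On that scale 0 kinases were called higher and 7 lower, beside 1.15% and 13.5% of all genes. MAPK8, which encodes the JUN kinase JNK1, had a log2 fold change of 0.07 (limma, BH-adjusted p = 0.590).

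Of 14 factors that act on FOS and JUN promoters, 14 were tested and 1 was called in each direction, beside 4.67% of all genes higher and 2.63% lower, with a median of −0.02. SRF, which binds the CArG box of early response genes, rose by 0.34, and MEF2C fell by 0.25 on the log2 scale (limma, BH-adjusted p = 0.0228 and 0.0394). Neither call held in any fit that left out 1 library, and that of MEF2C was lost with an upper quartile factor (limma, BH-adjusted p = 0.112). The log2 fold change of SRF was 0.05 with TPM as deposited. On that scale 0 of the 14 were called higher and 3 lower, beside 1.15% and 13.5% of all genes.

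Of 13 regulators of AP-1 protein or RNA turnover, all were tested, 3 were called higher and 0 lower, beside 4.67% and 2.63% of all genes, and the median was 0.10. Without HA-TAZ 1, 2 or 3 or control b 0 were called, and 1 was called without control a or c. With TPM as deposited 1 was called in each direction, beside 1.15% of all genes higher and 13.5% lower. ZFP36 encodes tristetraprolin, which binds AU-rich elements and speeds the decay of early response RNAs. Its levels were 19.0, 19.5 and 19.9 TPM in HA-TAZ 1, 2 and 3 and 9.66, 10.3 and 11.7 TPM in control a, b and c. The groups were far apart beside their spread, and the log2 fold change was 1.10 (SE 0.12, limma, BH-adjusted p = 0.0128). Its call was lost without any 1 HA-TAZ library or control b (limma, BH-adjusted p = 0.0545 to 0.0667). Its relative ZFP36L1 rose by 0.36 and the RNA stabiliser ELAVL1 by 0.32 on the log2 scale (limma, BH-adjusted p = 0.0259 and 0.0455), and both lost the call without any 1 library and with TPM as deposited (log2 fold changes 0.07 and 0.02).

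Among 11 partners of BATF and B lineage factors, 8 were tested, 2 were called higher and 0 lower, beside 4.67% and 2.63% of all genes, and the median was 0.14. Without HA-TAZ 1, HA-TAZ 3 or control b 0 were called, and 1 was called without any other library. With TPM as deposited 2 were called higher and 1 lower, beside 1.15% and 13.5% of all genes. STAT3, a cytokine-activated factor, was at 34.2, 34.1 and 33.0 TPM in HA-TAZ 1, 2 and 3 and at 28.3, 26.5 and 27.2 TPM in control a, b and c. It rose by 0.59 and RUNX3 by 0.55 on the log2 scale (limma, BH-adjusted p = 0.0122 and 0.0308), and the call of RUNX3 was lost without any 1 library (limma, BH-adjusted p = 0.0530 to 0.102). STAT3 lost its call without HA-TAZ 1, HA-TAZ 3 or control b (limma, BH-adjusted p = 0.0545 to 0.0590). IRF4 was at 173 ± 16.9 and 234 ± 34.6 TPM (SD of 3 libraries each), with a log2 fold change of −0.13 (limma, BH-adjusted p = 0.334). IRF8 was at 5.63 ± 1.08 and 4.24 ± 1.15 TPM (SD of 3 libraries each), with a log2 fold change of 0.60 (limma, BH-adjusted p = 0.0731). Of 7 genes for TAZ, YAP1, TEAD factors and VGLL4, 3 were tested. WWTR1 alone was called higher, which its overexpression fixed in advance, beside 4.67% of all genes. With an upper quartile factor or a filter at a mean of 5 TPM, 2 of the 3 were called higher.

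Genes described as AP-1 targets were partly silent in this line, and 8 of those that were tested were called higher. Of 29 listed, 16 were below the filter, among them the collagenase gene MMP1, PLAU, IL2 and CCL2, which were listed at 0 in each library. Of the 13 tested, 8 were called higher and 0 lower, with a median log2 fold change of 0.33, beside 4.67% of all genes called higher. This count was 0 without HA-TAZ 1 or HA-TAZ 2, 2 without HA-TAZ 3, control a or control b and 4 without control c. It was 5 with a factor over protein-coding genes or without an intensity trend and 3 without a filter on level. With TPM as deposited 1 was called higher and 3 lower, beside 1.15% and 13.5% of all genes, and the median of the list was 0.03. Members of this list that passed only through a level reached in HA-TAZ libraries had to differ, so the count is a description.

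HMOX1, the stress-induced haem oxygenase, was at 4.15, 4.75 and 5.50 TPM in HA-TAZ 1, 2 and 3 and at 2.41, 2.25 and 2.46 TPM in control a, b and c. It rose by 1.01 on the log2 scale (SE 0.12, limma, BH-adjusted p = 0.0146), without overlap. CD44, a receptor for hyaluronan, was at 34.1 ± 3.73 and 25.3 ± 2.36 TPM (SD of 3 libraries each) and rose by 0.71 on the log2 scale (SE 0.07, limma, BH-adjusted p = 0.00968). The intermediate filament gene VIM rose by 0.54 and the chromatin protein gene HMGA1 by 0.32 on the log2 scale (limma, BH-adjusted p = 0.0134 and 0.0321). HMGA1 had a log2 fold change of 0.02 with TPM as deposited and lost its call there and without any 1 library. CD44 and VIM lost theirs with TPM as deposited (limma, BH-adjusted p = 0.0507 and 0.0546), and each was lost without HA-TAZ 1 or HA-TAZ 2 (0.0511 to 0.0650), as was HMOX1 (0.0616 and 0.0618). HMOX1 also lost its call without control a or control b (limma, BH-adjusted p = 0.0521 and 0.0635), and VIM without HA-TAZ 3 (0.0525). PLAUR, TIMP1 and GJA1 were lower in each HA-TAZ library and missed the threshold (log2 fold changes −0.26, −0.31 and −0.49, limma, BH-adjusted p = 0.129, 0.149 and 0.0638), and they were the 3 called lower with TPM as deposited (limma, BH-adjusted p = 0.0458, 0.0499 and 0.0441). These 3 were named after their values were seen.

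**Figure D5:**
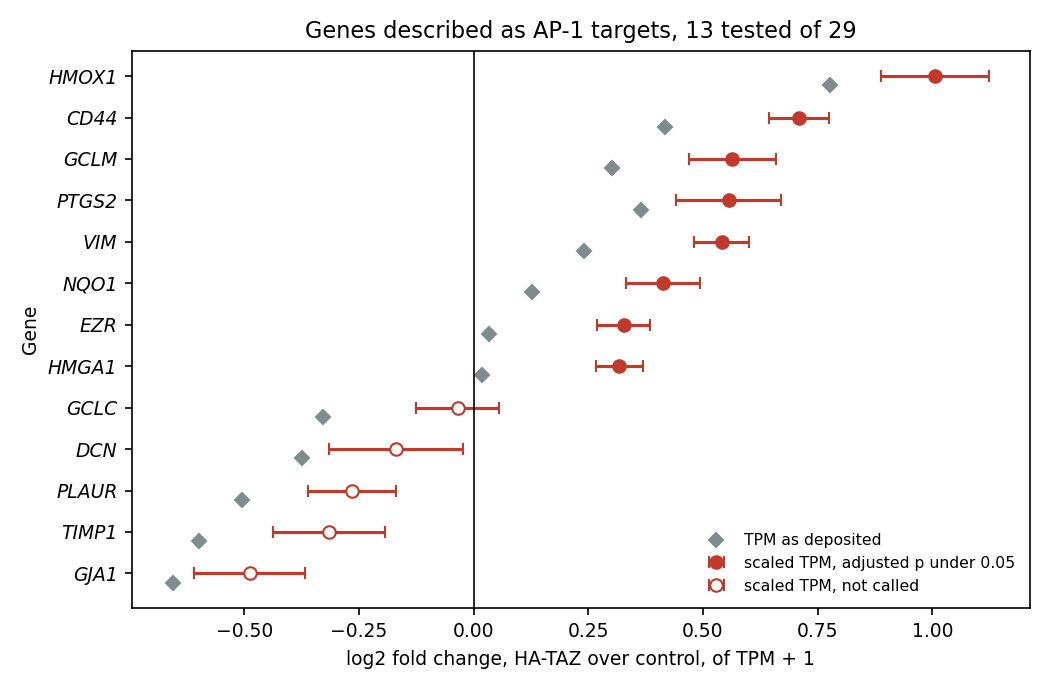
Log2 fold changes of HA-TAZ over control for the 13 tested genes described as AP-1 targets, with standard errors from limma for scaled TPM (filled circles are called, open circles are not) and without error bars for TPM as deposited (diamonds). The 8 called genes lie between 0.32 and 1.01, and the other 5 lie below 0.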

How the data were processed

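RNA of 6 libraries was depleted of ribosomal RNA and sequenced as stranded total RNA, per the labels' protocols. FastQC, MultiQC, kallisto 0.46.0, sleuth 0.30.0 and the build GRCh37 are named in the submitters' processing notes. The annotation release and the strand setting are not given in the sources used here. The authors deposited TPM for 215170 transcripts, which carries no read depth, so the depth of each library is unknown and precision was judged from the spread within groups. The authors' deposited table also holds sleuth Wald p-values and q-values, and effects and means as a natural log of scaled estimated counts, per the file headers. Estimated counts are the exponentials of those means, and for a gene they were summed over its transcripts with statistics.

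TPM was summed per gene ID (63677). Genes with a mean of at least 1 TPM (22651) were tested with limma 3.58.1 (R 4.3.3) on log2(scaled TPM + 1) with a mean-variance trend, two-sided and Benjamini-Hochberg adjusted over all genes with a threshold of 0.05, and transcripts likewise with the factors of the gene table. All 6 libraries entered, with no covariate. The fit was tested on simulated data with known changes. Those data held no shift in library make-up between the groups, so they do not bear on the choice of scaling. Single values used exact two-sided permutation tests. Transcript types came from GENCODE release 29, promoters from RefSeq. The members, gene lists and tests were chosen with earlier results of these data known. All members are named, and from each list at most 4 called genes with the smallest adjusted p, with others named where said or as background. Alternatives were the scaling, pseudocount, filter, trend and leaving out each library. Python 3.11.15, pandas 2.3.3, numpy 2.4.6, scipy 1.17.1 and matplotlib 3.10.9 were used.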

Additional observations from a re-analysis of the deposited data

How the results depend on the processing

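JUNB and JUN were called higher under each of the 14 alternatives run. The 6 called members became 3 with TPM as deposited and 3 without a filter on level, and 2 (without HA-TAZ 1) to 3 in the fits that each left out 1 library. The 3 called member transcripts became 1 without a filter on level and 0 to 2 where 1 library was left out. FOSB turned to −0.17 with TPM as deposited, −0.012 with a factor over protein-coding genes and −0.025 without control a (0.10 at most without another library), and MAP2K3 turned to −0.064 with TPM as deposited.

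Over all genes, 1652 calls (64.0% higher) became 3329 with TPM as deposited (7.84% higher), 2735 with an upper quartile factor (84.8% higher), 691 without a filter on level and 756 without an intensity trend. With a factor over protein-coding genes 1520 were called, 43.4% higher. Leaving out a library gave 118 to 470. Over the pathway lists, 22 calls (86.4% higher) became 11 without a filter on level, and 26 (23.1% higher) with TPM as deposited, 19 (73.7% higher) with the factor over protein-coding genes and 30 (96.7% higher) with the upper quartile factor. They ranged from 2 to 10 without a library. The median of all genes was −0.03 in scaled TPM and −0.27 as deposited. The cause of these changes in the counts was not tested.

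Differences in subfamily share ranged from −2.28 to −1.09 percentage points for FOS genes, 0.4596 to 1.47 for JUN genes and 0.570 to 1.44 for ATF3 with BATF and BATF3 without 1 library. Each member had 1 gene ID, so a sum over gene IDs gave no other value. In the authors' deposited table, 6 of the 7 member transcripts had a q-value under 0.01. No paired analysis was possible because the control columns have a name found in no label and match no numbered wild type title.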
